A study of Mus musculus with 6 samples.

Results

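The S100 proteins are small calcium-binding proteins, and the set described here is 6 genes of that family in mouse neutrophils. S100a8 and S100a9 encode the subunits of calprotectin. S100a6, S100a11, S100a10 and S100a4 encode widely expressed relatives that bind partner proteins inside the cell. The genes were chosen by name, and their symbols were matched to Ensembl identifiers through GENCODE M21. They are 6 of 54838 genes in the deposited tables, and 5 of them were among the 11924 genes with enough counts to be tested. Members and gene lists were chosen with earlier results of these data known.

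RNA was sequenced from neutrophils that had been sorted by flow cytometry out of infected mouse corneas 24 h after infection. The infecting agent was PAO1, a laboratory strain of Pseudomonas aeruginosa, and both genotypes received it. The mice were either Il1a-/-, which lack the cytokine IL-1 alpha, or wild type (WT), with 3 libraries per genotype. The labels used here give no strain, age or sex of the mice and no uninfected group. They number biological replicates without naming animals, so each p-value measures spread among libraries that may not be separate animals. The design asks how the transcriptome of neutrophils in the infected cornea differs when the host lacks IL-1 alpha.

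Calprotectin is among the most abundant cytosolic proteins of neutrophils. It binds zinc and manganese tightly and so withholds these metals from bacteria and fungi. It also carries arachidonic acid to the neutrophil oxidase, and once released it acts on receptors such as TLR4 and RAGE. S100 proteins lack a secretion signal and leave cells by other routes, as IL-1 alpha itself does. In the cornea, neutrophils recruited after infection are a known source of calprotectin.

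The proximal promoters of the genes are shown because not all of them held the letters of the TATA box. The TATA box letters TATAAA, searched on both strands, stood in the 300-base promoter windows of S100a8, S100a9 and S100a4. They were not in the windows of S100a6 and S100a11. The sequences are from RefSeq on GRCm38.p6, written 5′ to 3′ on the strand of the gene, with the matched letters in capitals. RefSeq held a window for 5 of the 6 genes, and the one without an entry is S100a10.
S100a8, chr3:90669029-90669058, plus strand: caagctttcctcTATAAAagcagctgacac
S100a9, chr3:90695704-90695733, minus strand: caaggagctgccTATAAAtactgggcttac
S100a4, chr3:90603727-90603756, plus strand: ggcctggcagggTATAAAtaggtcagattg
S100a11, chr3:93520446-93520475, plus strand: gcgggcacagccTGAGTCAggctgaggggc
The TATAAA letters began 30 bases before the RefSeq start of S100a8 and 31 bases before that of S100a4. In S100a9 they began at base 1 of the RefSeq start. Of 32851 promoter windows of the same length, 13.6% held TATAAA. The S100a11 window is shown for TGANTCA, the letters bound by AP-1 factors, which it held at 38 and at 136 bases before the start, and which 7.81% of all windows held.

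A further 6 motifs were searched on both strands. GAGGAAGT, bound by PU.1, was found 172 bases before the start of S100a8 and 18 bases after that of S100a4, and 3.2% of all windows held it. TTNNGNAAT, a loose form of the C/EBP letters, was found 131 bases before the start of S100a9, and 11.5% of all windows held it. The strict form TTGCGCAAT, which overlaps the loose form, stood in 0.0487% of all windows and in none of the 5. CCAAT was found in the S100a6 window, against 37.4% of all windows, and CACGTG in those of S100a6 and S100a11, against 7.15%. GGNNTTTCC, an NF-kB form, stood in 5.82% of all windows and in none of the 5. The motifs were chosen after the promoters had been seen, and a match is a description of letters and no evidence of binding.

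The libraries held 30229879, 32295293 and 22855676 gene counts in Il1a-/- and 25721159, 31768433 and 33626008 in WT. Any pair of libraries correlated across genes at r = 0.974 to 0.987 on the log2 scale, with the lowest value between Il1a-/- replicate 2 and WT replicate 1. Il1a itself had 2.89, 5.37 and 5.15 CPM (counts scaled to library size by TMM) in the Il1a-/- libraries, against 5116, 6195 and 8776 CPM in the WT libraries, which matches their labels. Summed over 8 neutrophil markers other than S100a8 and S100a9, the level ranged from 4200 to 5791 CPM in Il1a-/- and from 4792 to 5962 CPM in WT. Of these 8 genes 0 were called, against 0.101% of all tested genes. Of the 8, 2 had an unadjusted p under 0.05, against 5.99% of all tested genes. The median log2 fold change of the 8 was -0.17. Over 12 monocyte and macrophage markers, none of them without counts, the sum ranged from 706.5 to 725.7 CPM in Il1a-/- and from 585.1 to 633.2 CPM in WT. Of these 12 genes, 0 were called and 7 had an unadjusted p under 0.05, against 5.99% of all tested genes. In sorted bulk RNA, fewer cells of a type and less RNA per cell cannot be told apart.

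Neither calprotectin gene was called between the genotypes, and the levels of both overlapped. S100a8 (ENSMUSG00000056054, GRCm38 chromosome 3, 90668978 to 90670035, plus strand) had 9769, 9113 and 10112 CPM in the Il1a-/- libraries, against 9889, 11540 and 9520 CPM in the WT libraries. The groups overlapped, with WT replicate 2 highest and Il1a-/- replicate 2 lowest. S100a8 averaged 9665 ± 508 CPM in Il1a-/- and 10316 ± 1076 CPM in WT (SD, n = 3 each). Its log2 fold change, Il1a-/- minus WT, was -0.09 (SE 0.11, 95% interval -0.34 to 0.15, edgeR quasi-likelihood test, adjusted p = 0.965). On a linear scale the interval runs from 0.789 to 1.11 times the WT level.

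S100a9 (ENSMUSG00000056071, chromosome 3, 90692632 to 90695721, minus strand) encodes the partner subunit, whose longer tail adds a metal-binding site to the heterodimer. It had 13018, 12571 and 14298 CPM in the Il1a-/- libraries, against 13783, 15660 and 12946 CPM in the WT libraries. The same libraries were at the top and bottom as for S100a8. S100a9 averaged 13296 ± 897 CPM in Il1a-/- and 14129 ± 1390 CPM in WT (SD, n = 3 each). The log2 fold change was -0.09 (SE 0.11, 95% interval -0.34 to 0.16, edgeR, adjusted p = 0.97), and the linear interval runs from 0.792 to 1.12 times WT.

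S100a11 (ENSMUSG00000027907, chromosome 3, 93520488 to 93526287, plus strand) encodes a protein that binds annexin A1 and takes part in membrane repair. It had 757.9, 652.3 and 784.7 CPM in the Il1a-/- libraries, against 826.0, 877.9 and 746.5 CPM in the WT libraries. Il1a-/- replicates 1 and 3 lay above WT replicate 3, so the groups overlapped. The log2 fold change was -0.16 (SE 0.12, 95% interval -0.42 to 0.10, edgeR, adjusted p = 0.943), with a linear interval from 0.748 to 1.07 times WT.

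S100a6 (ENSMUSG00000001025, chromosome 3, 90612882 to 90624181, plus strand) encodes calcyclin, which binds the calcyclin-binding protein and several annexins. It had 391.4, 335.1 and 384.1 CPM in the Il1a-/- libraries, against 386.4, 416.2 and 327.1 CPM in the WT libraries. The highest and the lowest library were both WT, with every Il1a-/- value between them. The log2 fold change was -0.02 (SE 0.13, 95% interval -0.30 to 0.25, edgeR, adjusted p = 0.989), and its sign turned with library size scaling and without replicate 2 of either genotype.

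S100a10 (ENSMUSG00000041959, chromosome 3, 93555080 to 93564643, plus strand) encodes p11, which forms a complex with annexin A2 at the plasma membrane. It had 3.33, 9.25 and 4.50 CPM in the Il1a-/- libraries, against 2.40, 4.67 and 3.34 CPM in the WT libraries. Replicate 2 was the highest library of each genotype, and the groups overlapped. S100a10 averaged 5.69 ± 3.14 CPM in Il1a-/- and 3.47 ± 1.14 CPM in WT (SD, n = 3 each). The log2 fold change was 0.71 (SE 0.40, 95% interval -0.18 to 1.61, edgeR, adjusted p = 0.9), and it was 0.16 without Il1a-/- replicate 2. These values rest on 106, 300 and 103 counts in Il1a-/- and 64, 145 and 104 counts in WT.

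Marker genes of other cell types also varied between these libraries. Corneal epithelial markers (Krt12, Krt5, Krt14, Epcam, Cdh1, Pax6 and Aldh3a1) summed to 25.4, 99.7 and 31.8 CPM in the Il1a-/- libraries, against 16.8, 131.4 and 62.5 CPM in the WT libraries. Of the 6 tested among these 7 genes 0 were called, against 0.101% of all tested genes. Of the 6, 0 had an unadjusted p under 0.05, against 5.99% of all tested genes. Krt14 was the most abundant, at 14.8, 64.0 and 23.6 CPM in Il1a-/- and 8.76, 85.6 and 31.2 CPM in WT. Erythroid and platelet markers summed to 3.08, 38.9 and 11.1 CPM in the Il1a-/- libraries, against 4.87, 31.7 and 6.98 CPM in the WT libraries, again with replicate 2 highest in both genotypes. Nearly all of that sum was Ppbp, a platelet chemokine, at 2.80, 38.7 and 10.7 CPM in Il1a-/- and 3.89, 31.3 and 6.92 CPM in WT, while Hba-a1, Hbb-bs, Alas2 and Itga2b were below 1 CPM. The monocyte and macrophage sum, mostly Cd68, Csf1r and Adgre1, stayed between 706.5 and 725.7 CPM in the Il1a-/- libraries. Its members differed there, and C1qa, C1qb, C1qc, Mrc1, Ms4a7, Ccr2 and F13a1 were each highest in replicate 2. Cd68, Csf1r, Adgre1, Ly6c2 and Apoe were each highest in replicate 1 or 3. The part of RNA from these cell types in the S100a10 values was not tested.

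**Figure D1:**
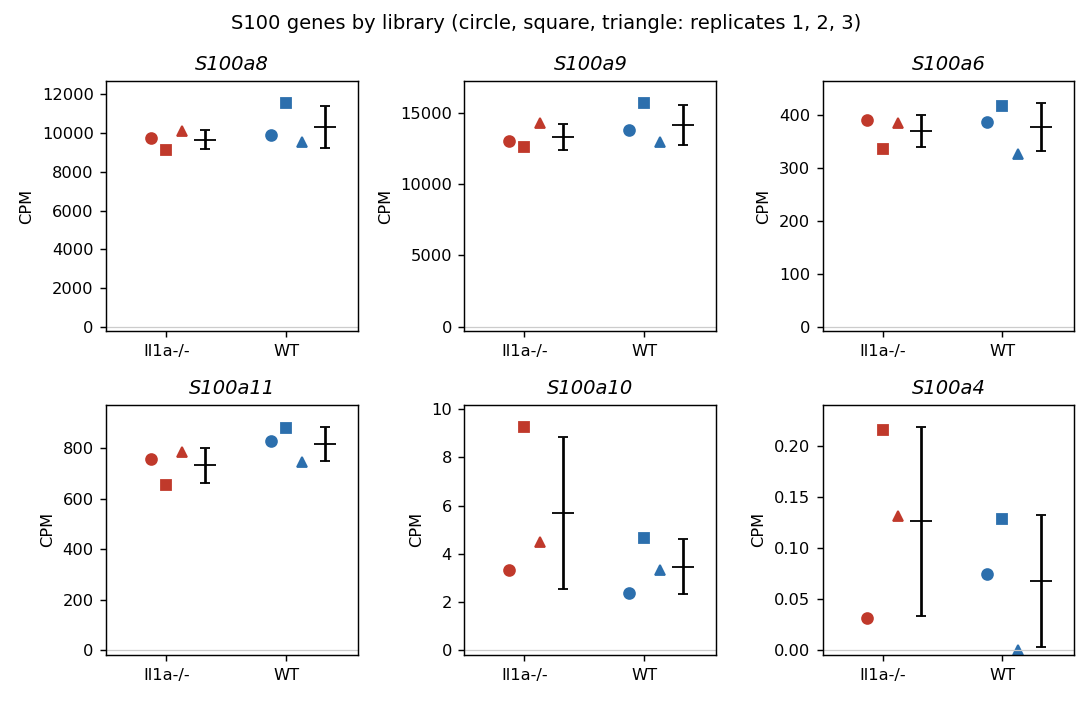
CPM of the 6 S100 genes in each library, Il1a-/- on the left and WT on the right of each panel, with the mean ± SD as a bar beside the points. The genotypes overlap in all 6 panels, and S100a10 reached 9.25 CPM in Il1a-/- replicate 2; the S100a4 panel shows counts of 0 to 7, which do not measure that gene's level.

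S100a4 (ENSMUSG00000001020, chromosome 3, 90603771 to 90606045, plus strand) encodes a partner of non-muscle myosin heavy chain that is known for cell motility. It had 1, 7 and 3 counts in the Il1a-/- libraries, against 2, 4 and 0 counts in the WT libraries, and was not tested. In GENCODE M21, 302 of its 584 exon bases, or 51.7%, lie in exons of Gm42674, a gene model on the same strand at 90601904 to 90605885. The count layout leaves out reads that touch exons of more than 1 gene. Gm42674 was listed with 0 counts in all 6 libraries. The stretches that belong to S100a4 alone are 36, 86 and 160 bases long, so its level cannot be read from these counts and no fold is given. The sum of the strand columns gave the same 1, 7, 3, 2, 4 and 0 counts, since both models are on the same strand. Exons of the other 5 genes overlapped no other gene.

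Of the 5 tested S100 genes, 0 were called in either direction by edgeR at an adjusted p under 0.05, against 12 of all 11924 tested genes (0.101%), 9 higher and 3 lower in Il1a-/-. None of the 5 had an unadjusted p under 0.05, against 714 of all tested genes (5.99%). DESeq2 and limma-voom also called 0 of them. The genotypes overlapped in all 5, and 1383 of all tested genes (11.6%) had groups that did not overlap. The 5 genes are too few to differ from any of these shares. The median log2 fold change of the 5 was -0.09, with 4 below 0, and that of all tested genes was 0.0045.

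**Figure D2:**
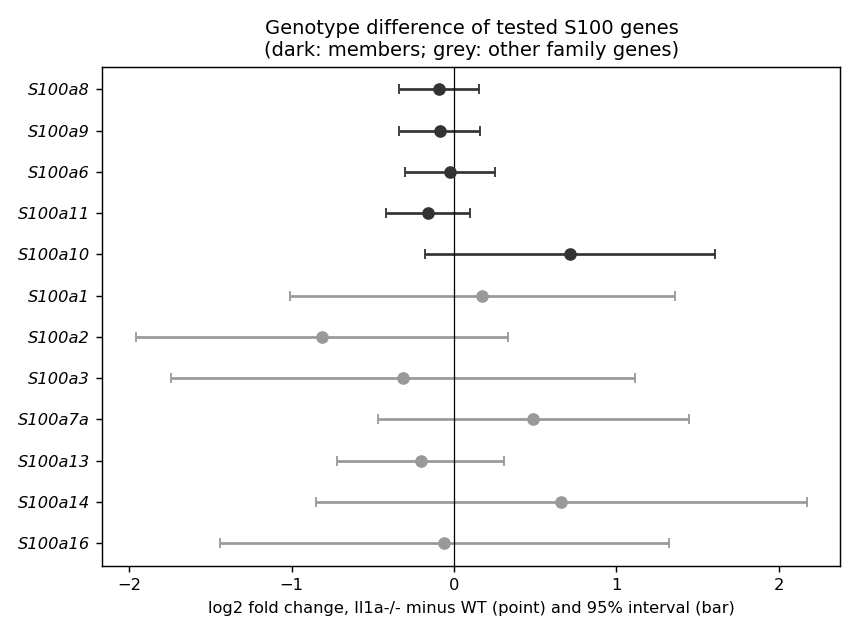
Log2 fold change, Il1a-/- minus WT, with its 95% interval from edgeR for the 12 tested S100 genes, the 5 tested members in dark and 7 other family genes in grey. Every interval includes 0, and the narrowest are those of S100a8 and S100a9, with SE 0.11 each.

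Levels between genes were compared as CPM per kilobase of exon. S100a9 averaged 25471 ± 1717 CPM per kilobase in Il1a-/- and 27068 ± 2662 in WT (SD, n = 3 each). By this measure it ranked highest of 11922 tested genes with a known length in all 3 Il1a-/- libraries and in WT replicates 1 and 2, and ranked 2 in WT replicate 3. S100a8 averaged 13926 ± 731 CPM per kilobase in Il1a-/- and 14865 ± 1550 in WT, and ranked between 4 and 7 in every library. By this measure both calprotectin genes were therefore among the 7 highest in every library of both genotypes. By CPM without division by length, S100a9 ranked between 7 and 9 and S100a8 between 9 and 14. The length counts all annotated exons of a gene, and ranks with another gene length were not computed.

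The other members followed well below. S100a11 averaged 1432 ± 137 CPM per kilobase in Il1a-/- and 1598 ± 130 in WT, with ranks from 31 to 41. S100a6 averaged 270.8 ± 22.4 in Il1a-/- and 275.5 ± 33.2 in WT, with ranks from 157 to 196. S100a10 averaged 4.70 ± 2.59 in Il1a-/- and 2.86 ± 0.94 in WT, with ranks from 2516 to 5121. The order S100a9, S100a8, S100a11, S100a6, S100a10 was the same in both genotypes, and no neighbours in it overlapped in their mean ± SD. Of the other tested family genes, S100a13 was at 7.002 ± 0.828 CPM per kilobase in Il1a-/- and 8.08 ± 1.00 in WT, within the spread of S100a10 in Il1a-/- and above it in WT. With the length of the first annotated transcript in place of all exons, S100a8 came closer to S100a9, at 19886 ± 1044 in Il1a-/- and 21227 ± 2214 in WT.

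The balance of the calprotectin subunits within a library needs no scaling between libraries. S100a9 had 1.33, 1.38 and 1.41 times the counts of S100a8 in the Il1a-/- libraries, against 1.39, 1.36 and 1.36 times in the WT libraries. The ranges overlapped. The ratio averaged 1.38 ± 0.04 in Il1a-/- and 1.37 ± 0.02 in WT (SD, n = 3 each). On the log2 scale the difference was 0.0051 (exact two-sided permutation test over libraries, p = 1, where the smallest possible p is 0.1), and its sign changed without Il1a-/- replicate 3, WT replicate 2 or WT replicate 3.

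**Figure D3:**
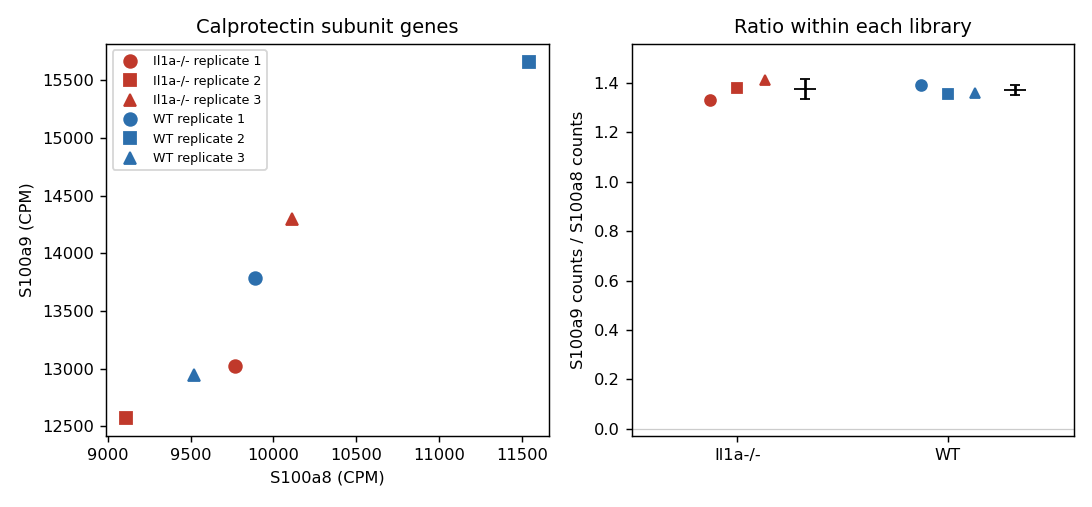
Left, S100a9 against S100a8 in CPM, a point per library; right, the ratio of S100a9 to S100a8 counts in each library with the mean ± SD, Il1a-/- left of WT. The 6 libraries keep the same order for both genes, and the ratio stays between 1.33 and 1.41.

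The 6 genes together took 2.52, 2.28 and 2.56% of all gene counts in the Il1a-/- libraries, against 2.59, 2.79 and 2.18% in the WT libraries. WT held both the highest and the lowest share. The share averaged 2.45 ± 0.15% in Il1a-/- and 2.52 ± 0.31% in WT (SD, n = 3 each), a difference of -0.06 percentage points (exact two-sided permutation test, p = 0.8), and the sign changed without replicate 2 of either genotype. Nearly all of it was calprotectin, since S100a8 and S100a9 alone took 2.34 ± 0.14% in Il1a-/- and 2.40 ± 0.30% in WT.

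Across the 6 libraries of both genotypes, S100a8 and S100a9 varied together. Pearson's r of their log2 CPM was 0.966 (exact permutation p = 0.00139, adjusted p = 0.0139 over 10 pairs). Spearman's rho was 1 (exact permutation p = 0.00278, adjusted p = 0.0278). Without Il1a-/- replicate 2 and WT replicate 2, the libraries farthest from the median of S100a8, r was 0.923. The relation passed the threshold for this pair alone of the 10 pairs of tested members. S100a11 gave r = 0.874 with S100a8 and 0.867 with S100a9, each with an adjusted exact permutation p = 0.0861. Without the same pair of libraries the value for S100a11 with S100a8 was 0.617, and without Il1a-/- replicate 3 and WT replicate 2 that for S100a11 with S100a9 was 0.938. S100a6 gave r = 0.809 with S100a8 (adjusted exact permutation p = 0.0861). S100a10 gave r between -0.62 and -0.16 with the other 4, and none passed. For each pair the 2 libraries farthest from the median of the other gene, not of S100a10, were then left out. The r of S100a10 was then 0.33 with S100a8, -0.85 with S100a9, 0.495 with S100a6 and -0.50 with S100a11. The sign thus turned with S100a8 and S100a6 and stayed negative with S100a9 and S100a11. The libraries left out differed between these pairs. Il1a-/- replicate 2, the highest library of S100a10, stayed in only for the pair with S100a9. These values over the remaining libraries were not tested.

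Among 1816 other tested genes with at least 50 CPM and a plain symbol, the one most like S100a8 across the 6 libraries was S100a9, at r = 0.966. The next were B4galt1, a Golgi galactosyltransferase, at 0.942, Ubl5, a ubiquitin-like protein of the splicing machinery, at 0.936, Tor1aip1, of the inner nuclear membrane, at 0.927, and Plk2, a stress-induced kinase, at 0.924. Most like S100a9 was Ubl5 at 0.981, followed by S100a8. Then came Xbp1, a factor of the unfolded protein response, at 0.915, Rhog, a small GTPase, at 0.902, and Rsad2, an interferon-induced antiviral gene, at 0.899. These values are descriptions over 6 libraries that share their depth and scaling.

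S100a11 has processed copies elsewhere in the genome. The closest by sequence, Gm12854 on chromosome 4, matched 297 of the 511 bases of the transcript at 99.0% identity, with 3 differing bases. The stretch that holds all 3 is shown because a read from the matched bases that covers none of them is identical in gene and copy. Differing bases are in capitals.
S100a11, transcript bases 304 to 363: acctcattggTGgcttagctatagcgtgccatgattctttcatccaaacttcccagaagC
Gm12854, transcript bases 230 to 289: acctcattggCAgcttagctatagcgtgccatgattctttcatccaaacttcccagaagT
Gm12854 held 327, 293 and 254 counts in the Il1a-/- libraries, against 305, 331 and 287 counts in the WT libraries. That was 1.36, 1.39 and 1.41% of the S100a11 counts in Il1a-/- and 1.38, 1.21 and 1.24% in WT. Another copy, Gm7665, matched at 98.7% and held 59 to 108 counts. S100a11-ps and Gm29240, at 93.7% and 90.5%, held at most 3 counts in any library. Reads that map equally well to several places are left out of this count layout, so the S100a11 level per length is a minimum to that extent. Transcripts of S100a8, S100a9, S100a6 and S100a10 had no copy at 90% identity over at least 50% of their length.

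On chromosome 3 the tables hold 14 genes of the family. From S100a1 to S100a9 the cluster spans 184.7 kb, and 22596 bases separate the S100a8 and S100a9 genes, which are on opposite strands. S100a11 lies 2825 kb beyond S100a9, and S100a10 beside it. These neighbours differed in level, with S100a11 at 1432 CPM per kilobase in Il1a-/- and 1598 in WT, and S100a10 at 4.70 in Il1a-/- and 2.86 in WT. S100a7a, which lies between the far more highly expressed S100a6 and S100a8, averaged 1.53 ± 0.63 CPM per kilobase in Il1a-/- and 1.09 ± 0.39 in WT. It had 1.45, 3.08 and 1.79 CPM in the Il1a-/- libraries, against 1.38, 1.03 and 2.09 CPM in the WT libraries.

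**Figure D4:**
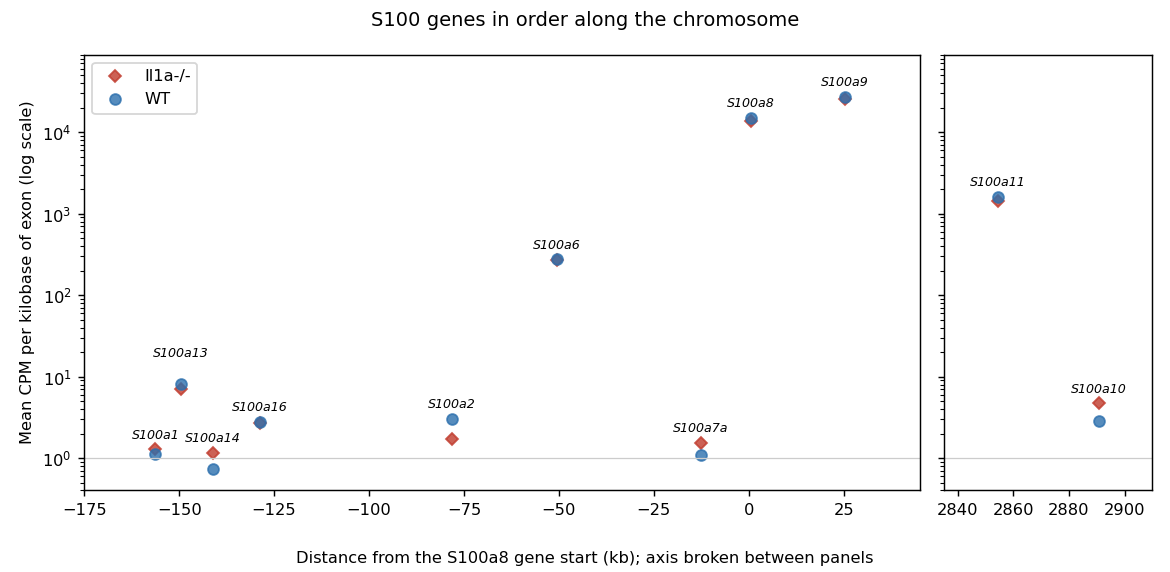
Mean CPM per kilobase of exon for each genotype, on a log axis, against distance from the S100a8 gene start in kb, with the axis broken before S100a11, Il1a-/- as diamonds and WT as circles. S100a8 and S100a9 lie between 13926 and 27068 at the right end of the cluster, S100a6 at 271 in Il1a-/- and 276 in WT, and the other cluster genes below 10; S100a3, S100a4 and S100a5, whose levels were uncertain or not tested, are left out.

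Of 12 further family genes listed, 11 were in the tables and 7 were tested. Of these, 0 were called by edgeR, DESeq2 or limma-voom, and 0 had an unadjusted p under 0.05, against 5.99% of all tested genes. Their median log2 fold change was -0.06. S100a13, known for the non-classical export of IL-1 alpha in mouse fibroblast lines, had 5.69, 4.66 and 4.67 CPM in the Il1a-/- libraries, against 6.36, 5.99 and 4.98 CPM in the WT libraries. The groups overlapped, and the log2 fold change was -0.21 (SE 0.23, edgeR, adjusted p = 0.962). S100a2 was the 1 of 7 family genes whose groups did not overlap, against 11.6% of all tested genes, at 0.50, 0.65 and 0.48 CPM in Il1a-/- and 1.09, 0.71 and 1.09 CPM in WT, on 11 to 34 counts. Its log2 fold change was -0.81 (SE 0.52, edgeR, adjusted p = 0.922).

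S100a14 and S100a16, which are known from epithelia, varied between libraries more than between genotypes. S100a14 had 0.94, 3.79 and 1.31 CPM in the Il1a-/- libraries, against 0.37, 2.38 and 1.06 CPM in the WT libraries. S100a16 had 3.02, 8.51 and 1.44 CPM in the Il1a-/- libraries, against 2.06, 7.34 and 4.18 CPM in the WT libraries. Replicate 2 was highest in both genotypes, as it was for S100a10 and for the epithelial and the erythroid and platelet marker sums. Among the epithelial markers, Pax6 and Aldh3a1 were instead highest in WT replicate 3, with Aldh3a1 at 1.76, 1.42 and 8.17 CPM in WT. The erythroid and platelet sum was nearly all Ppbp, and Itga2b, also a platelet gene, was not highest in replicate 2 of either genotype. Some macrophage markers, such as F13a1, were also highest in Il1a-/- replicate 2, and others, such as Csf1r, were not. The part of RNA from other cell types in the S100 levels was not tested.

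**Figure D5:**
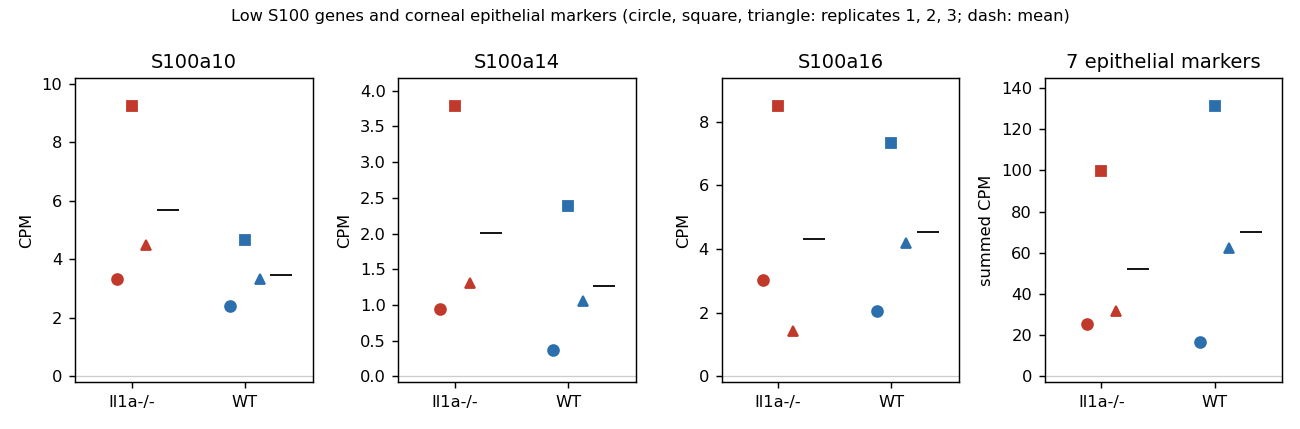
CPM of S100a10, S100a14 and S100a16 and the summed CPM of 7 corneal epithelial markers in each library, Il1a-/- left of WT, with the mean as a dash. Replicate 2 of each genotype is the highest of its group in all 4 panels, at 99.7 CPM in Il1a-/- and 131.4 CPM in WT for the markers.

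S100a1, best known from heart muscle, averaged 0.89 ± 0.03 CPM in Il1a-/- and 0.79 ± 0.35 CPM in WT (SD, n = 3 each). S100a3 had 25, 9 and 9 counts in the Il1a-/- libraries, against 16, 24 and 14 counts in the WT libraries. Its exons overlap Gm23464 on the opposite strand and Gm42674, and the sum of the strand columns gave 183 to 228 counts in Il1a-/- and 184 to 270 in WT, so its level is uncertain. S100a5, S100b, S100g and S100z had too few counts to be tested. S100z had 0 counts in every library, which allows a level of up to 0.0929 to 0.131 CPM in the Il1a-/- libraries and up to 0.0892 to 0.117 CPM in the WT libraries, at 3 counts of the library total. Such floors cover counting error only.

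Receptors for released S100 proteins were measured in the same neutrophils. Of 12 tested receptor genes 0 were called and 0 had an unadjusted p under 0.05, against 5.99% of all tested genes. Their median log2 fold change was 0.03. Cd14, a co-receptor of TLR4, was at 29075 ± 229 CPM in Il1a-/- and 32856 ± 4185 CPM in WT (SD, n = 3 each). Tlr4, the signalling receptor for calprotectin, was at 413.7 ± 18.7 CPM in Il1a-/- and 431.8 ± 28.6 CPM in WT. Cd33, reported as a receptor of S100A9 in human cells, was at 1108 ± 73 CPM in Il1a-/- and 1116 ± 55 CPM in WT. Ager, which encodes RAGE, was near 1 CPM, at 1.09 ± 0.39 in Il1a-/- and 1.15 ± 0.22 in WT. Cd68, a lysosomal glycoprotein, was at 348 ± 25 CPM in Il1a-/- and 308 ± 27 CPM in WT.

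Of 18 intracellular partners of S100 proteins, 16 were tested and 0 were called. Of the 16, 1 had an unadjusted p under 0.05, against 5.99% of all tested genes. Their median log2 fold change was -0.03. Anxa2, the partner of S100a10, averaged 492.2 ± 73.4 CPM in Il1a-/- and 540.1 ± 54.8 CPM in WT. Per kilobase it stood at 131.9 ± 19.7 in Il1a-/- and 144.8 ± 14.7 in WT, far above S100a10 at 4.70 and 2.86. Anxa1, the partner of S100a11, averaged 167.7 ± 32.0 CPM in Il1a-/- and 193.0 ± 34.8 CPM in WT. Myh9, the myosin heavy chain bound by S100a4, averaged 188.6 ± 13.6 CPM in Il1a-/- and 189.7 ± 42.7 CPM in WT. The gene under 0.05 was Itgb1, an integrin chain, at 208.7, 187.9 and 172.4 CPM in Il1a-/- and 140.5, 148.2 and 162.9 CPM in WT (log2 fold change 0.33, SE 0.12, edgeR, adjusted p = 0.748).

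All 11 genes listed for the oxidase and for arachidonate handling were tested, with 0 called and 2 at an unadjusted p under 0.05, against 5.99% of all tested genes. Groups did not overlap in 2 of the 11, Ncf1 and Ncf4, against 11.6% of all tested genes. Their median log2 fold change was 0.02. Cybb, the catalytic oxidase subunit, had 132.3, 136.3 and 152.3 CPM in the Il1a-/- libraries, against 84.8, 85.1 and 134.1 CPM in the WT libraries (log2 fold change 0.47, SE 0.18, edgeR, adjusted p = 0.779). Ncf1, the organiser subunit, had 1038, 962 and 1058 CPM in Il1a-/- and 889, 827 and 863 CPM in WT (log2 fold change 0.25, SE 0.10, edgeR, adjusted p = 0.798). WT replicate 3 overlapped the Il1a-/- range for Cybb, and no library overlapped for Ncf1. Rac2 averaged 1314 ± 92 CPM in Il1a-/- and 1360 ± 110 CPM in WT, and Ncf4 had 451.2, 443.5 and 473.8 CPM in Il1a-/- and 369.3, 368.9 and 429.8 CPM in WT.

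Calprotectin withholds metals beside other proteins. Of 17 tested metal genes 0 were called by edgeR or limma-voom, while DESeq2 called Mt1, and 2 had an unadjusted p under 0.05 in each direction, 4 in all, against 5.99% of all tested genes. The median log2 fold change was -0.04. Lcn2, which traps bacterial siderophores, averaged 8849 ± 654 CPM in Il1a-/- and 9111 ± 256 CPM in WT (SD, n = 3 each). Fth1, the ferritin heavy chain, averaged 49246 ± 3235 CPM in Il1a-/- and 50951 ± 5191 CPM in WT, and Slc11a1, the metal exporter of the phagosome, 2299 ± 230 CPM in Il1a-/- and 2332 ± 275 CPM in WT. Ftl1, the ferritin light chain, averaged 1254 ± 105 CPM in Il1a-/- and 1173 ± 73 CPM in WT.

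The 4 metal genes under the unadjusted threshold were named for their values. Mt1, a zinc-binding metallothionein, had 13.5, 21.4 and 17.4 CPM in the Il1a-/- libraries, against 25.1, 28.2 and 43.0 CPM in the WT libraries. The groups did not overlap, and the log2 fold change was -0.88 (SE 0.24, edgeR, adjusted p = 0.484), while DESeq2 gave an adjusted p of 0.0427. Trf, transferrin, had 9.21, 10.2 and 9.96 CPM in Il1a-/- and 16.1, 17.0 and 14.7 CPM in WT (log2 fold change -0.70, SE 0.17, edgeR, adjusted p = 0.328). Slc39a14, a zinc and iron importer, had 8.46, 8.23 and 10.8 CPM in Il1a-/- and 8.08, 4.80 and 5.08 CPM in WT (a log2 fold change of 0.62, SE 0.26, edgeR, adjusted p = 0.799). Hamp, hepcidin, had 4.34, 8.26 and 8.82 CPM in Il1a-/- and 5.58, 3.77 and 2.35 CPM in WT, with overlap (edgeR, adjusted p = 0.803).

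Of 11 transcription factors known at S100a8 and S100a9, all tested, 0 were called. Of the 11, 1 had an unadjusted p under 0.05, against 5.99% of all tested genes. Their median log2 fold change was -0.21, from -0.47 to 0.08. Cebpb averaged 3559 ± 26 CPM in Il1a-/- and 3742 ± 368 CPM in WT, and Spi1, which encodes PU.1, 359.2 ± 59.1 CPM in Il1a-/- and 394.5 ± 55.4 CPM in WT (SD, n = 3 each). Stat3 had 701.2, 771.5 and 664.2 CPM in the Il1a-/- libraries, against 851.4, 804.1 and 812.8 CPM in the WT libraries, without overlap (log2 fold change -0.21, SE 0.11, edgeR, adjusted p = 0.867). Cebpd was the factor under 0.05, at 87.7, 61.6 and 72.1 CPM in Il1a-/- and 130.2, 100.7 and 76.0 CPM in WT, with overlap (log2 fold change -0.47, SE 0.20, edgeR, adjusted p = 0.821).

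A further list, of neutrophil proteins taken to be released beside calprotectin, held no gene called by edgeR in the main test, DESeq2 or limma-voom. With no filter on low counts, edgeR called Chil3. Of 11 listed 10 were tested, and 1 had an unadjusted p under 0.05, against 5.99% of all tested genes. The median log2 fold change of the 10 was -0.04. Lcp1, an actin bundler, averaged 3236 ± 314 CPM in Il1a-/- and 3268 ± 287 CPM in WT, and Coro1a, coronin, 366.5 ± 73.4 CPM in Il1a-/- and 391.3 ± 44.7 CPM in WT (SD, n = 3 each). Stfa2l1, a stefin, averaged 201.8 ± 23.2 CPM in Il1a-/- and 219.4 ± 26.7 CPM in WT, and Anxa3 85.3 ± 8.3 CPM in Il1a-/- and 87.0 ± 11.3 CPM in WT. Chil3, a chitinase-like protein of myeloid cells, had 83.1, 35.1 and 27.7 CPM in Il1a-/- and 80.9, 100.4 and 97.3 CPM in WT. Il1a-/- replicate 1 lay within the WT range, and the log2 fold change was -0.93 (SE 0.37, edgeR, adjusted p = 0.786).

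Of 9 genes for the release of leaderless proteins, 0 were called, and their median log2 fold change was 0.08. Of the 9, 1 had an unadjusted p under 0.05, against 5.99% of all tested genes. Nlrp3, an inflammasome sensor, averaged 3096 ± 148 CPM in Il1a-/- and 3275 ± 339 CPM in WT (SD, n = 3 each). Ninj1, which ruptures the plasma membrane in lytic death, averaged 1032 ± 31 CPM in Il1a-/- and 977 ± 83 CPM in WT. Gsdmd, the pore-forming gasdermin, averaged 67.8 ± 6.1 CPM in Il1a-/- and 59.6 ± 7.9 CPM in WT, and Casp4, which cleaves it, 240.9 ± 36.1 CPM in Il1a-/- and 218.9 ± 20.4 CPM in WT. Pycard, the inflammasome adaptor ASC, had 6.95, 8.76 and 5.68 CPM in Il1a-/- and 4.98, 4.19 and 3.47 CPM in WT, without overlap (log2 fold change 0.76, SE 0.26, edgeR, adjusted p = 0.678).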

How the data were processed

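RNA came from a micro column kit and cDNA from the SMART-seq v4 ultra low input kit, which does not mark strand, per the labels' protocols. The submitters' processing notes list STAR 2.7.8a, Trimmomatic 0.39 and FastQC 0.11.9, with GRCm38 and mm10 as builds. Which annotation release served is not given in the sources used here. Raw gene counts were deposited by the authors, with an unstranded column and 2 strand columns in STAR's layout, which leaves out reads on exons of several genes and reads that map to several places. The unstranded column was used, and between 49.9% and 50.1% of strand counts fell in the first strand column. Of 54838 genes, 54809 matched GENCODE M21.

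Library totals were 22855676 to 33626008 counts. The expression filter of edgeR (filterByExpr, by genotype) kept 11924 genes, which held 99.9% of counts. After TMM scaling, edgeR 4.0.16 under R 4.3.3, with limma 3.58.1, gave robust quasi-likelihood tests of Il1a-/- against WT without a replicate term. P-values were adjusted over all tested genes by Benjamini-Hochberg, with a threshold of 0.05. CPM use TMM-scaled library sizes, and log2 CPM a prior count of 3. Ratios, shares and correlations were tested by exact permutation over libraries with scipy 1.17.1. The plan named 15 pairs of members for correlation, and 10 were possible since S100a4 was not tested. DESeq2 1.42.0, limma-voom, other scalings, filters, the strand columns, a replicate block and each library left out were tried as alternatives. A second gene length was added after the data were seen. Copies were searched with blastn 2.17.0 at 90% identity over 50% of the transcript. The procedure was tested on simulated data. Figures were drawn with matplotlib 3.10.9.

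The members and lists were chosen with earlier results of these data known. The text names the 6 members, tested family genes, up to 4 members per list with the highest mean CPM, and the 5 genes most like S100a8 and S100a9. A gene that this rule names is not reported here. Ager, the promoter motifs and genes named for an unadjusted p under 0.05 were chosen after their values were seen.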

Additional observations from a re-analysis of the deposited data

How the results depend on the processing

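Of the tested S100 genes 0 were called under every scaling, filter, tool, strand or left-out-library alternative, and likewise 0 of the other family genes. The number of called genes, 12, was 185 with no filter on low counts, 21 with a filter at 5 CPM in 3 libraries, 69 with DESeq2, and between 7 and 24 with single libraries left out. With a replicate block it was 20. The deviations of same-numbered libraries correlated at 0.287, -0.002 and 0.111 across genes, so the numbers were not taken to pair the libraries, and not every library correlated best with its own number. Over 15 alternatives the log2 fold change ran from -0.15 to -0.01 for S100a8 and for S100a9, and from -0.22 to -0.09 for S100a11. For S100a6 it was 0.029 with library size scaling and ran from -0.118 to 0.052 with single libraries left out. For S100a10 it ran from 0.16 to 0.99 over 14 alternatives, and at the 5 CPM filter it could not be fitted. With single libraries left out, the log2 difference in the S100a9 to S100a8 ratio ran from -0.0151 to 0.0277, and the difference in the share of counts from -0.2326 to 0.0722 percentage points. The causes of these changes were not tested. With 3 libraries per genotype the exact permutation test cannot give a two-sided p below 0.1, and S100a2, S100a3 and S100a4 rest on few counts.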

Other observations

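The S100 cluster lies within the epidermal differentiation complex, whose structural genes are known from skin. Of 22 neighbours listed, 6 were tested. The structural genes Lor, Flg, Flg2, Hrnr, Rptn, Tchh and Crnn were among those with too few counts to be tested. Of the 6 tested, 0 were called by edgeR, DESeq2 or limma-voom. None of the 6 had an unadjusted p under 0.05, against 5.99% of all tested genes. The log2 fold changes of the 6 lay between 0.03 and 0.56, with a median of 0.29. Chtop, a chromatin-bound mRNA export factor, averaged 32.8 ± 2.4 CPM in Il1a-/- and 32.1 ± 6.2 CPM in WT (SD, n = 3 each). Gatad2b, a subunit of the NuRD complex, averaged 20.5 ± 4.7 CPM in Il1a-/- and 17.4 ± 1.6 CPM in WT. Pglyrp4, a peptidoglycan-binding antibacterial protein, had 3.11, 8.42 and 4.89 CPM in Il1a-/- and 5.13, 5.76 and 3.31 CPM in WT, with overlap. Ilf2, an RNA-binding nuclear factor, averaged 3.21 ± 0.28 CPM in Il1a-/- and 2.53 ± 0.25 CPM in WT, without overlap. Its log2 fold change was 0.34 (SE 0.29, edgeR, adjusted p = 0.944).

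Chil3 and Mt1 were the list genes called by DESeq2, limma-voom or edgeR with no filter. For lists other than the S100 family, calls under the remaining alternatives were not looked up. DESeq2 called 69 genes in all, among them Mt1, and edgeR with no filter called 185. With no filter on low counts, edgeR gave Chil3 an adjusted p of 1.92e-06 and Mt1 an adjusted p of 0.000587. Both had about the same log2 fold change there, -0.94 for Chil3 and -0.89 for Mt1.

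Monocyte and macrophage markers had a median log2 fold change of 1.73 over 12 genes, and they did not all move one way. The most abundant, Cd68, had 337.1, 330.5 and 376.5 CPM in the Il1a-/- libraries, against 282.7, 335.7 and 306.8 CPM in the WT libraries, with overlap. Csf1r, the next, had 230.4, 196.0 and 190.2 CPM in Il1a-/- and 188.1, 180.5 and 164.3 CPM in WT, without overlap. Adgre1, the third, had 86.4, 79.8 and 72.1 CPM in Il1a-/- and 58.2, 63.4 and 83.4 CPM in WT, with overlap. Low-count members differed more, such as C1qb, named after its values were seen, with 2.11, 8.29 and 4.02 CPM in Il1a-/- and 0.97, 1.26 and 0.74 CPM in WT. Ly6c2, a monocyte gene also named after its values were seen, went the other way, with 27.9, 21.8 and 29.9 CPM in Il1a-/- and 32.9, 31.6 and 33.3 CPM in WT, without overlap. The part of RNA from these cells in the S100 levels was not tested.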
